A study of Homo sapiens with 27 samples.

Results

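Proliferating cells can make serine, glycine, asparagine and proline for themselves, and the genes described here encode the enzymes of those routes. PHGDH, PSAT1 and PSPH carry out the steps from a glycolytic intermediate to serine. SHMT1 in the cytosol and SHMT2 in mitochondria turn serine into glycine and hand a carbon unit to folate, and MTHFD2 and ALDH1L2 pass that unit on inside mitochondria. ASNS makes asparagine from aspartate and glutamine, while ALDH18A1 and PYCR1 act in proline synthesis. Several of these genes are known targets of ATF4, the transcription factor whose translation rises when amino acids run short, and the amino acid-sensing kinase complex mTORC1 is known to act on ATF4 as well. PHGDH is also known for its gain in copy number in some melanomas.

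The 10 genes were chosen by symbol from this pathway, and 9 of the 10 have a row in a table of 13523 genes. ALDH1L2 was not analysed here. All 9 genes passed the filter on low values, which kept 13052 genes with a normalised read count of at least 1 in at least 3 libraries. On hg38, in the GENCODE annotation, PHGDH lies at chr1:119648411-119744218 on the plus strand, PSAT1 at chr9:78297125-78330093 on the plus strand and PSPH at chr7:56011051-56051604 on the minus strand. The folate genes are SHMT1 at chr17:18327860-18363563 on the minus strand, SHMT2 at chr12:57229573-57234935 on the plus strand and MTHFD2 at chr2:74186172-74217565 on the plus strand. ASNS lies at chr7:97851677-97872542, PYCR1 at chr17:81932384-81942412 and ALDH18A1 at chr10:95605941-95656711, all on the minus strand. The annotation also holds pseudogenes named after MTHFD2 (7), ASNS (4), PSAT1 (4), PSPH (1) and SHMT1 (1). Of these only MTHFD2P1 has a row of its own, and reads shared with such copies may have been split or dropped when the counts were made.

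The cells were 501mel, an established human melanoma line that expresses MITF together with its relatives TFEB and TFE3. Poly(A) RNA was read from its 3′ ends (QuantSeq Forward). There are 9 groups. Unedited cells (WT) received no treatment, spent 12 h in HBSS (a glucose-containing salt solution without amino acids), or given the mTOR inhibitor Torin1 at 250 nM for 12 h. TFE3 KO, TFEB KO and TFE3/TFEB double KO (DKO) cells, made with Cas9, were sampled as a 12 h control or after 12 h of 250 nM Torin1. The labels give DMEM with fetal bovine serum as the medium, whereas the methods of the study give RPMI for human melanoma lines. Each KO genotype is a clonally isolated line, so genotype and clone cannot be told apart, and no HBSS library of a KO line was analysed here. The untreated WT group carries no time label.

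Of 27 labelled libraries, the columns of WT HBSS replicate 3 and WT Torin replicate 1 hold identical values in all 13523 genes. Both were left out, which leaves 25 libraries, with n = 2 for WT HBSS and WT Torin and n = 3 for each other group. Nothing says that replicates came from separate cultures, so p-values measure the spread between these libraries, which may be technical. Depth ran from 4147050 to 6526392 reads, and 3 reads, the limit that a count of 0 allows, equal a normalised read count of 0.460 to 0.711. Intervals from counts cover counting error only. The melanocytic markers MITF, SOX10, PMEL, MLANA, TYR, DCT and TYRP1 were present in every library (7 of 7, summed level 5123 to 14453). Of 12 markers of other cell types 3 had a row, with a summed level of 30.9 to 77.5, nearly all of it CD68. TFE3 stood at 24.0 ± 0.285 (SD, n = 3) in untreated WT, 6.30 ± 1.27 in TFE3 KO and 6.35 ± 0.470 in DKO. TFEB, a low transcript, stood at 3.25 ± 0.827 in WT, 1.11 ± 0.485 in TFEB KO, 0.661 ± 0.457 in DKO and also 0.681 ± 0.764 in TFE3 KO (SD, n = 3).

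RefSeq promoter sequences (GRCh38.p14) were at hand for 6 of the 10 genes: PHGDH, PSAT1, SHMT1, MTHFD2, ASNS and ALDH18A1. The 250 bases before each start were searched on both strands for TGATGNAA, the core of the amino acid response element bound by ATF4, for the E-box CACGTG, and for TCACGTGA, a longer element of the MITF family that contains the E-box. The ASNS promoter held TGATGNAA, with its first base 68 bases before the start, and ALDH18A1 held CACGTG 136 bases before its start. No other match was found in these windows, including a second ASNS start. Over 35116 RefSeq promoters, 3.14% held TGATGNAA, 6.34% CACGTG and 0.854% TCACGTGA in the same 250 bases. The sequences are shown because ASNS and PSAT1 differed most between groups below, and ALDH18A1 least under Torin1. They read 5′ to 3′ with the matched letters in capitals. The ASNS stretch is chr7:97872458-97872487 on the minus strand, which an annotated longer ASNS transcript counts as 5′ UTR. The ALDH18A1 stretch is chr10:95656806-95656883 on the minus strand, and the PSAT1 stretch is the 120 bases before its start, chr9:78297005-78297124 on the plus strand, with no match.
ASNS: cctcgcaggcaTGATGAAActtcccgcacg
ALDH18A1: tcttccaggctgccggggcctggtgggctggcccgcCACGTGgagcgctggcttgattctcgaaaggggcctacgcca
PSAT1: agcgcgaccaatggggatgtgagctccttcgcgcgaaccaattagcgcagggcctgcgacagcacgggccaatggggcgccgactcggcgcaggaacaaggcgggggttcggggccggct
A match to letters is a description of the sequence, not a measured binding site.

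**Figure D1:**
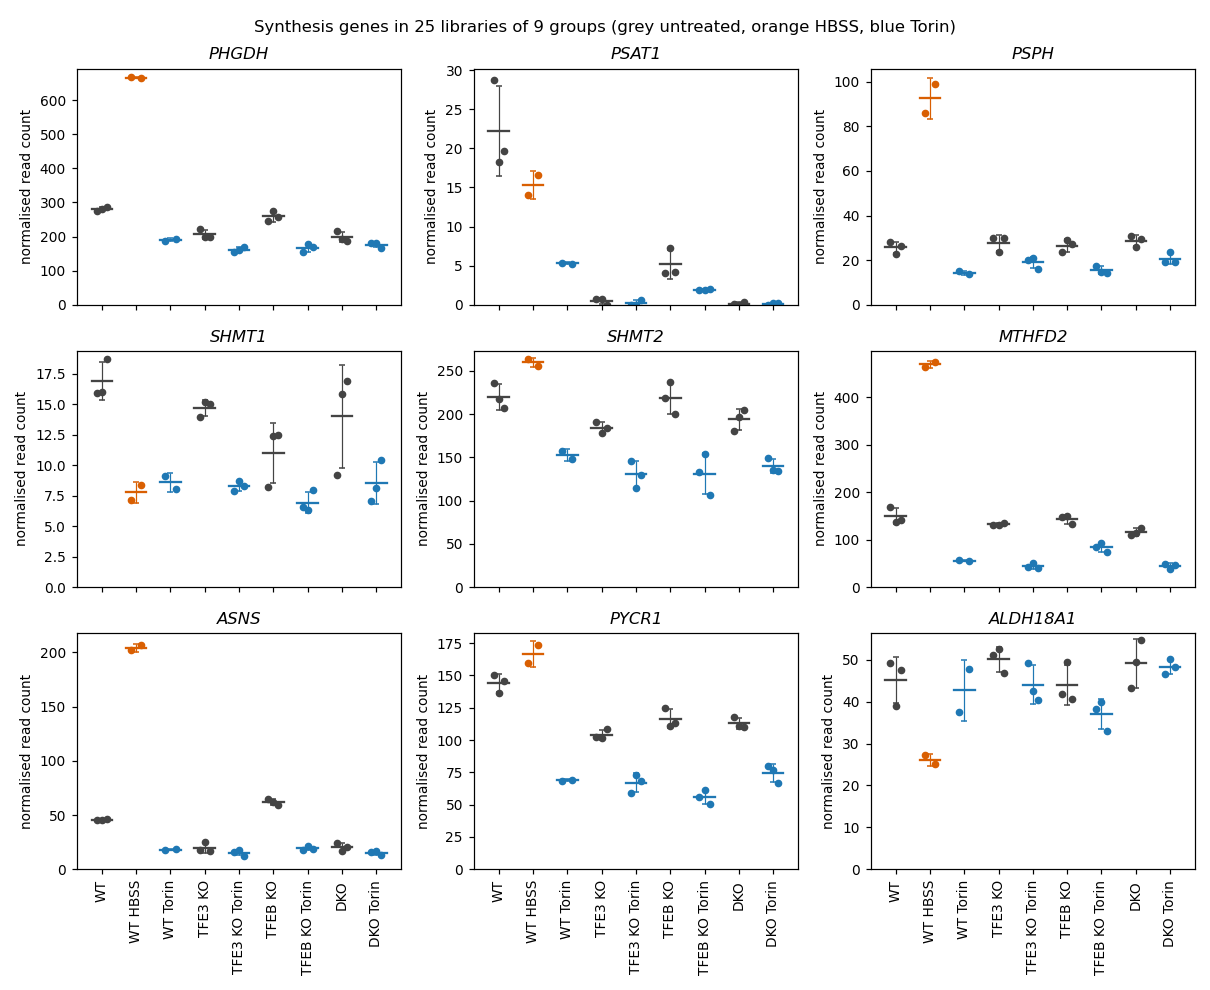
Normalised read count (y axis, linear, from 0) of each of the 9 genes in the 25 libraries, by group along the x axis. Points are libraries, horizontal lines group means and bars ± 1 SD. ASNS, MTHFD2, PHGDH and PSPH stand apart in WT HBSS, and PSAT1 lies below 1 in every TFE3 KO and DKO library.

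The first comparison asked how unedited cells responded to 12 h in HBSS, which lacks amino acids. HBSS took the place of the whole medium, so loss of amino acids cannot be told apart from other differences between them. In HBSS, mRNA of ASNS, PSPH, MTHFD2 and PHGDH rose between 2.37-fold and 4.47-fold, while SHMT1 and ALDH18A1 fell and PSAT1, the middle enzyme of the same serine route, did not pass the test. ASNS was read at 45.8, 45.1 and 46.1 in untreated WT and at 202 and 207 in HBSS. The groups were far apart, and the log2 fold change of (normalised read count + 1) was 2.14 ± 0.16 (SE; limma, Benjamini-Hochberg adjusted p = 6.35e-16). Later log2 fold changes and adjusted p-values come from this limma model unless another fit is named, with the SE after most of them. Changes written as x-fold are ratios of group means or, where stated, of summed reads.

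Along the serine route the 3 enzymes did not move alike. PHGDH, the entry step, went from 276, 280 and 285 to 666 and 665 (log2 fold change 1.24 ± 0.08, adjusted p = 1.80e-17). PSPH, the last step, went from 27.9, 22.8 and 26.3 to 86.1 and 98.8 (1.81 ± 0.16, adjusted p = 8.79e-14). Both HBSS libraries of PHGDH and of PSPH lay above every untreated one. PSAT1, the transaminase between them, was read at 28.8, 18.2 and 19.7 in untreated WT and 14.0 and 16.5 in HBSS. Its HBSS libraries lay just below the untreated ones, but the difference was within the error of the fit (−0.49 ± 0.30, adjusted p = 0.188). With only the compared libraries in the fit its adjusted p was 0.0324.

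Among the folate enzymes, the mitochondrial MTHFD2 went from 170, 137 and 142 to 464 and 474 (1.65 ± 0.11, adjusted p = 3.69e-17). The cytosolic SHMT1 went the other way, from 15.9, 16.0 and 18.7 to 7.13 and 8.37 (−1.03 ± 0.22, adjusted p = 9.58e-05). SHMT2, its mitochondrial counterpart, was 235, 217 and 207 in untreated cells and 264 and 256 in HBSS, a small difference that lay at the threshold (0.24 ± 0.10, adjusted p = 0.0490). It missed the threshold without WT HBSS replicate 1 (adjusted p = 0.197) or 2 (0.119) and without WT replicate 2 (0.0935) or 3 (0.157). For proline, ALDH18A1 fell from 49.1, 39.0 and 47.4 to 27.2 and 25.1 (−0.76 ± 0.13, adjusted p = 4.61e-06). PYCR1, the last step, was 150, 137 and 146 before and 159 and 174 after (0.21 ± 0.10, adjusted p = 0.0903, and 0.0473 with edgeR on recovered reads).

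A gene is called here when its adjusted p is under 0.05 and its log2 fold change is at least 1 in size. In HBSS 4 of the 9 genes were called higher, where 6.9% of all genes tested were, and 1 was called lower, where 6.2% were. With the adjusted p alone, 5 were higher (23.6% of all genes) and 2 lower (24.7%). The median log2 fold change of the 9 genes was 0.24, against −0.03 over all genes tested. The genes are too few, and chosen with results known, for these counts to be more than a description.

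The second comparison asked how the same cells responded to mTOR inhibition. After 12 h of Torin1, 8 of the 9 genes fell and none rose, with the largest falls in PSAT1, MTHFD2, ASNS and PYCR1. PSAT1 went from 28.8, 18.2 and 19.7 to 5.39 and 5.21 (−1.85 ± 0.30, adjusted p = 2.11e-06). MTHFD2 went to 56.3 and 55.5 (−1.40 ± 0.11, adjusted p = 1.72e-14), and ASNS to 17.6 and 18.7 (−1.29 ± 0.16, adjusted p = 3.78e-09). In each of these genes both treated libraries lay below all 3 untreated ones.

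PYCR1 went to 68.4 and 69.4 (−1.05 ± 0.10, adjusted p = 6.07e-12). The remaining serine and folate enzymes fell by less. PHGDH reached 188 and 193 (−0.56 ± 0.08, adjusted p = 2.84e-07) and PSPH 15 and 13.7 (−0.79 ± 0.16, adjusted p = 4.29e-05). SHMT1 reached 9.14 and 8.06 (−0.90 ± 0.22, adjusted p = 0.000721) and SHMT2 158 and 148 (−0.52 ± 0.10, adjusted p = 5.65e-05). ALDH18A1 was the exception: at 37.5 and 47.9 its libraries overlapped the untreated ones (−0.08 ± 0.13, adjusted p = 0.643). Thus 4 of the 9 were called lower (4% of all genes were) and 8 passed the adjusted p in that direction (23.4% of all genes). The median of the 9 was −0.90, against 0.00 over all genes tested.

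Set directly against each other, HBSS and Torin1 left unedited cells with different amounts of these mRNAs. ASNS was 11.3-fold higher in HBSS than in Torin1 (3.42 ± 0.17, adjusted p = 1.36e-21), MTHFD2 8.39-fold (3.05 ± 0.12, adjusted p = 4.15e-25) and PSPH 6.43-fold (2.60 ± 0.17, adjusted p = 1.94e-17). PHGDH (1.80 ± 0.09), PSAT1 (1.37 ± 0.33, adjusted p = 0.000667) and PYCR1 (1.26 ± 0.11) were called higher as well, which makes 6 of 9 where 6.95% of all genes were. SHMT2 also passed, for 7 higher on the adjusted p (26.1% of all genes), and ALDH18A1 alone was lower in HBSS (−0.68 ± 0.15, adjusted p = 0.000134, 1 of 9 where 23.1% of all genes were). SHMT1 was low under both treatments, and its libraries overlapped (−0.13 ± 0.24, adjusted p = 0.670). The PSAT1 difference rests on how far PSAT1 fell under Torin1, and missed the threshold with a pseudocount of 0.1 (adjusted p = 0.142).

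**Figure D2:**
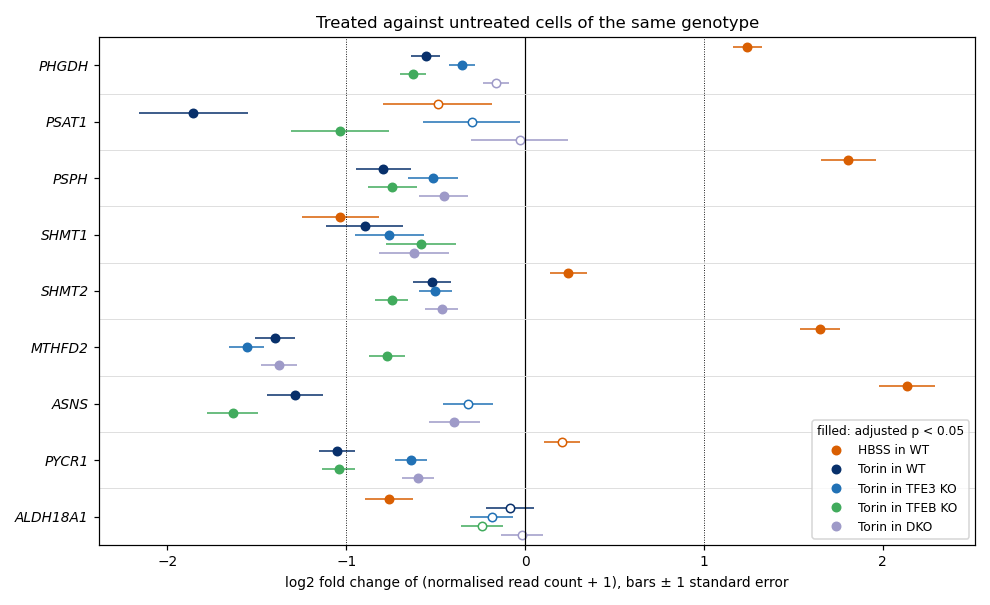
Log2 fold change of (normalised read count + 1) with ± 1 SE for each gene, treated against untreated cells of the same genotype. Filled points have an adjusted p under 0.05 and dotted lines mark a log2 fold change of 1 in either direction. HBSS (orange) raises ASNS, PSPH, MTHFD2 and PHGDH, and under Torin1 ASNS lies at −0.32 in TFE3 KO and −0.39 in DKO, against −1.29 in WT and −1.64 in TFEB KO.

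The untreated KO lines were next set against untreated WT. TFEB mRNA was also low in TFE3 KO, so loss of TFE3 and low TFEB cannot be told apart in that line. The study also reported moderately lower TFEB and some suppression of MITF in its TFE3 KO cells. PSAT1 and ASNS were the 2 genes called, while PHGDH and PYCR1 differed by less. PSAT1 was lower than WT in all 3 KO lines and almost unread wherever TFE3 was disrupted, whereas ASNS was lower in TFE3 KO and DKO and, if anything, higher in TFEB KO.

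PSAT1 gave 175, 92 and 101 reads in the untreated WT libraries and 18, 39 and 25 in TFEB KO. In TFE3 KO it gave 4, 5 and 0 reads, and in DKO 1, 0 and 2. Every WT library lay above every TFEB KO library, and these lay above every TFE3 KO and DKO library. TFE3 KO and DKO overlapped each other. On normalised read counts WT stood at 22.2 ± 5.71 (SD, n = 3), TFEB KO at 5.18 ± 1.84, TFE3 KO at 0.491 ± 0.426 and DKO at 0.156 ± 0.157. From summed reads, WT was 4.35-fold above TFEB KO (exact 95% counting interval 3.42 to 5.60), 46.8-fold above TFE3 KO (24.4 to 103) and 140-fold above DKO (47.5 to 681). The last of these rests on 3 reads in the whole DKO group. The fitted log2 fold changes were −1.92 ± 0.27 in TFEB KO (adjusted p = 1.38e-06), −3.98 ± 0.27 in TFE3 KO (adjusted p = 4.56e-16) and −4.31 ± 0.27 in DKO (adjusted p = 2.26e-17). For the last 2 lines, the size depends on the added 1.

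**Figure D3:**
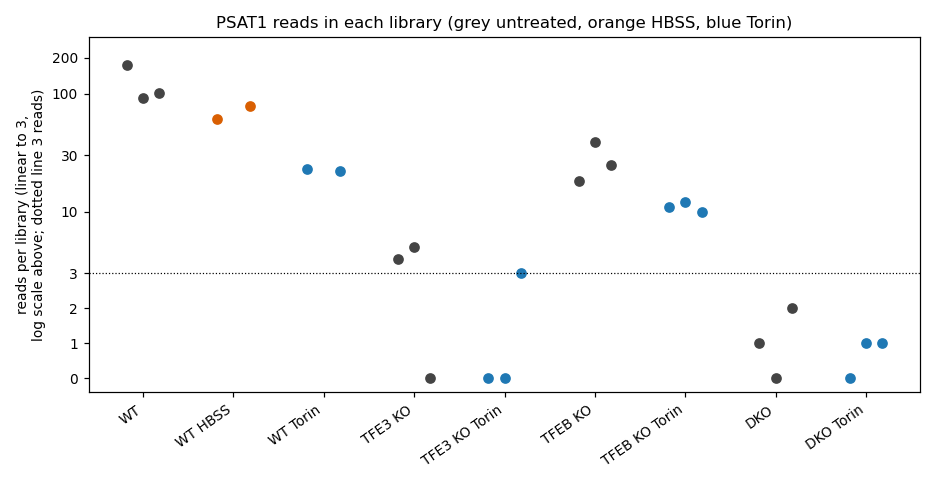
Reads of PSAT1 in each library (y axis linear up to 3 reads and logarithmic above) by group. Points are libraries and the dotted line marks 3 reads; no TFE3 KO or DKO library exceeds 5 reads, whereas the WT libraries hold 92 to 175.

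ASNS, read at about 45 to 46 in every untreated WT library, was 17.5, 25.2 and 16.5 in TFE3 KO (−1.20 ± 0.14, adjusted p = 1.05e-08) and 24.0, 16.9 and 20.5 in DKO (−1.13 ± 0.14, adjusted p = 2.83e-08). In TFEB KO it was 64.9, 61.8 and 59.7, above all WT libraries (0.44 ± 0.14, adjusted p = 0.0295). That rise lost significance without TFEB KO replicate 1 (adjusted p = 0.0992) or 2 (0.0694) and without WT replicate 1 (0.0674), 2 (0.0735) or 3 (0.0667). The 2 single-KO lines were compared directly: ASNS was lower in TFE3 KO than in TFEB KO by −1.63 ± 0.14 (adjusted p = 5.85e-13) and PSAT1 by −2.06 ± 0.27 (adjusted p = 5.52e-08). The DKO line stood in the same relation to TFEB KO, with ASNS at −1.57 ± 0.14 (adjusted p = 2.39e-12) and PSAT1 at −2.39 ± 0.27 (adjusted p = 1.97e-09).

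The other 7 genes differed less among untreated lines. PHGDH was 221, 199 and 199 in TFE3 KO and 215, 193 and 186 in DKO, below the WT range of 276 to 285 in every library (−0.44 ± 0.07, adjusted p = 1.91e-05, and −0.50 ± 0.07, adjusted p = 1.31e-06). In TFEB KO it was 245, 275 and 257 (−0.12 ± 0.07, adjusted p = 0.311). PYCR1 was below WT in TFE3 KO (102, 101 and 109; −0.46 ± 0.09, adjusted p = 0.000261) and in DKO (118, 111 and 110; −0.35 ± 0.09, adjusted p = 0.00619).

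In TFEB KO, PYCR1 was read at 125, 111 and 113 (−0.31 ± 0.09, adjusted p = 0.0171), a difference lost without TFEB KO replicate 2 (adjusted p = 0.0758) or 3 (0.0528) or WT replicate 1 (0.0704) or 3 (0.0525). SHMT1 was 8.20, 12.4 and 12.4 in TFEB KO (−0.60 ± 0.19, adjusted p = 0.0312), also lost without TFEB KO replicate 1 (adjusted p = 0.221) or WT replicate 1 (0.0556), 2 (0.0523) or 3 (0.122). MTHFD2 was 109, 114 and 125 in DKO (−0.36 ± 0.10, adjusted p = 0.0106), lost without DKO replicate 1 (adjusted p = 0.0605) or WT replicate 1 (0.107). PSPH and ALDH18A1, the last serine step and the first proline step, had overlapping libraries in WT and every untreated KO line, with adjusted p of at least 0.501.

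Counted against WT, 2 of the 9 genes were called lower in TFE3 KO (1.33% of all genes), 1 in TFEB KO (0.253%) and 2 in DKO (1.18%), and none was called higher. Against TFEB KO, 2 were called lower in TFE3 KO (3.62% of all genes) and 2 in DKO (2.7%). Between DKO and TFE3 KO none of the 9 was called by limma, where 0.743% of all genes were. None reached an unadjusted p under 0.05 there, and edgeR and DESeq2 on recovered reads called 0 too. PSAT1 was at or near the floor in both of those lines, so a further difference could not be seen at this depth.

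**Figure D4:**
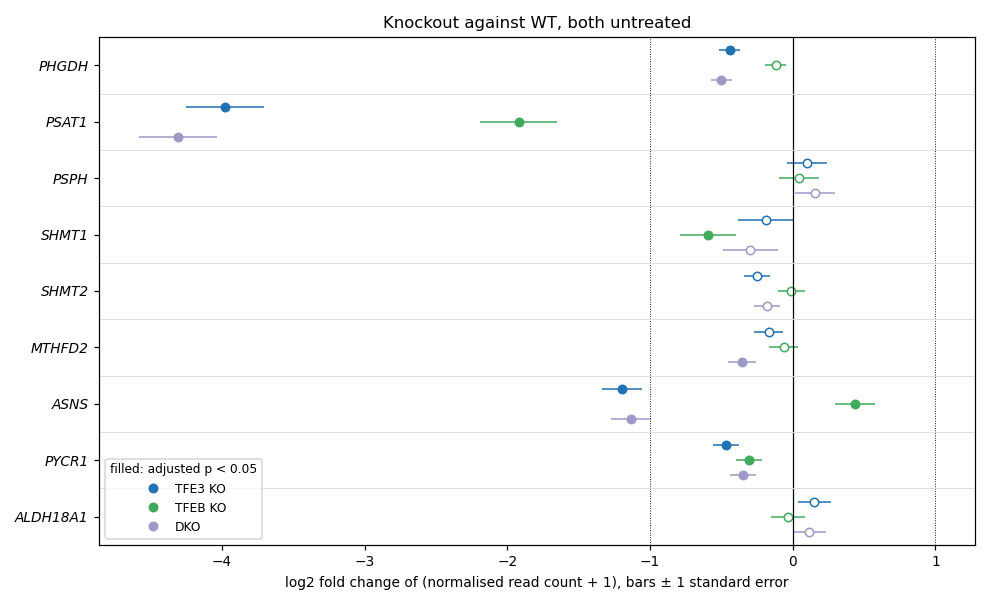
Log2 fold change of (normalised read count + 1) with ± 1 SE for each gene in untreated TFE3 KO, TFEB KO and DKO cells against untreated WT. Filled points have an adjusted p under 0.05; PSAT1 is lower in all 3 lines, and ASNS is lower in TFE3 KO and DKO and higher in TFEB KO.

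The next comparisons asked whether Torin1 acted on these genes without TFE3 or TFEB. MTHFD2 fell in every line: to 42.6, 51.4 and 39.5 in TFE3 KO (−1.56 ± 0.10, adjusted p = 3.93e-18), to 49.5, 37.7 and 45.7 in DKO (−1.38 ± 0.10, adjusted p = 3.44e-16), and less far in TFEB KO, to 84.5, 92.7 and 72.9 (−0.77 ± 0.10, adjusted p = 2.00e-08). Treated and untreated libraries of MTHFD2 did not overlap in any line. ASNS behaved differently by line. In TFEB KO it fell to 17.9, 21.2 and 18.9 (−1.64 ± 0.14, adjusted p = 2.69e-13).

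In TFE3 KO, where ASNS was low before treatment, Torin1 left it at 16.3, 17.4 and 12.7, overlapping the untreated libraries (−0.32 ± 0.14, adjusted p = 0.0538). The adjusted p was 0.0296 without TFE3 KO Torin replicate 2, 0.0380 without TFE3 KO replicate 1 and 0.0208 without TFE3 KO replicate 3. In DKO it was 15.5, 17.1 and 13.2 (−0.39 ± 0.14, adjusted p = 0.0172), a fall lost without DKO replicate 1 (adjusted p = 0.134) or DKO Torin replicate 3 (0.110). After Torin1, then, ASNS lay between 12.7 and 21.2 in all 4 genotypes, close to its untreated level in TFE3 KO and DKO.

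PSAT1 fell in TFEB KO from 18, 39 and 25 reads to 11, 12 and 10 (−1.03 ± 0.27, adjusted p = 0.00202), a call that did not hold with a pseudocount of 0.1 (adjusted p = 0.133). In TFE3 KO it gave 0, 0 and 3 reads after Torin1 and in DKO 0, 1 and 1. No fold is given there, because the treated groups were at or under the floor of 3 reads per library, as were 4 of the 6 untreated libraries.

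PYCR1, PSPH, SHMT2 and SHMT1 passed the test downwards under Torin1 in every KO line. PYCR1 fell by 0.64 ± 0.09 on the log2 scale in TFE3 KO (adjusted p = 7.04e-08), 1.04 ± 0.09 in TFEB KO (adjusted p = 3.53e-13) and 0.60 ± 0.09 in DKO (adjusted p = 2.91e-07). PSPH fell by 0.51, 0.74 and 0.46 and SHMT2 by 0.50, 0.75 and 0.47 in the same order of lines. SHMT1 fell by 0.76, 0.58 and 0.62, and was the least stable of them. Its fall missed the threshold in TFEB KO without TFEB KO replicate 2 (adjusted p = 0.0769) or 3 (0.0749) or TFEB KO Torin replicate 2 (0.0582), and in DKO without DKO replicate 3 (0.0685) or DKO Torin replicate 1 (0.0501).

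PHGDH fell in TFE3 KO, to 155, 159 and 169 (−0.35 ± 0.07, adjusted p = 7.35e-05), and in TFEB KO, to 154, 179 and 168 (−0.63 ± 0.07, adjusted p = 1.82e-09). In DKO it was 182, 180 and 168, with no overlap with the untreated libraries but short of the threshold (−0.16 ± 0.07, adjusted p = 0.0594). It passed without DKO replicate 3 (adjusted p = 0.0304). ALDH18A1 did not pass in any line, with log2 fold changes of −0.19 ± 0.12 in TFE3 KO, −0.24 ± 0.12 in TFEB KO and −0.02 ± 0.12 in DKO.

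Torin1 thus called 1 of 9 genes lower in TFE3 KO (4.69% of all genes), 3 in TFEB KO (1.65%) and 1 in DKO (4.29%). On the adjusted p alone 6 fell in TFE3 KO (26% of all genes), 8 in TFEB KO (21%) and 6 in DKO (26.2%). No member rose in any line.

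Whether the Torin1 response itself differed from that of WT was tested by the difference of the log2 fold changes. For ASNS the response was weaker in TFE3 KO by 0.97 ± 0.21 (adjusted p = 0.0107) and in DKO by 0.89 ± 0.21 (adjusted p = 0.0323). The DKO difference is not firm. It missed the threshold without any 1 of 8 libraries (adjusted p 0.0513 to 0.153), all 5 WT and WT Torin libraries, DKO Torin replicates 1 and 2 and DKO replicate 2. The TFE3 KO difference missed it without WT Torin replicate 2 (adjusted p = 0.0754). In TFEB KO the ASNS response did not differ beyond error (−0.35 ± 0.21, adjusted p = 0.482).

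For MTHFD2 the response was weaker in TFEB KO by 0.63 ± 0.15 (adjusted p = 0.0212), but not without WT replicate 1 (adjusted p = 0.0763), WT Torin replicate 2 (0.0844) or 3 (0.124), or TFEB KO Torin replicate 1 (0.0556) or 2 (0.0687). The other 2 lines were close to WT, at −0.16 ± 0.15 in TFE3 KO (adjusted p = 0.796) and 0.02 ± 0.15 in DKO (adjusted p = 0.984). PSAT1 also passed, in TFE3 KO (1.56 ± 0.41, adjusted p = 0.0428) as in DKO (1.82 ± 0.41, adjusted p = 0.0215). These PSAT1 values come from lines in which no untreated library held more than 5 of its reads. PSAT1 could hardly fall further there, so the test cannot tell a weaker response from the floor. With edgeR on recovered reads neither passed (adjusted p = 0.902 for TFE3 KO, 0.840 for DKO). The TFE3 KO value also missed the threshold without WT replicate 1 or 3, either WT Torin library, TFE3 KO replicate 1 or 3 or TFE3 KO Torin replicate 3 (adjusted p 0.0538 to 0.167). The DKO value missed it without WT replicate 1, either WT Torin library, DKO replicate 2 or DKO Torin replicate 2 or 3 (0.0517 to 0.110). PSAT1 was the 1 gene called in each of these 2 comparisons, where 0.176% of all genes were called higher for TFE3 KO and 0.123% for DKO. For TFEB KO limma called 0 of 9 (0.207% of all genes), with 1 of 9 at an unadjusted p under 0.05, and edgeR and DESeq2 called 0.

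With Torin1 in all lines, PSAT1 was the 1 member called against WT, and it was called in all 3 KO lines. It gave 23 and 22 reads in the WT Torin libraries, and summed reads put WT 2.74-fold above TFEB KO (exact 95% counting interval 1.71 to 4.44), 24.8-fold above TFE3 KO (7.95 to 125) and 44.7-fold above DKO (11.7 to 380). The last 2 rest on 3 and 2 reads. It was called lower in TFE3 KO (−2.42 ± 0.30, adjusted p = 6.68e-08; 1 of 9, where 1.5% of all genes were), in TFEB KO (−1.10 ± 0.30, adjusted p = 0.00840; 0.391%) and in DKO (−2.49 ± 0.30, adjusted p = 4.18e-08; 1.15%). The TFEB KO call was lost without WT Torin replicate 2 (adjusted p = 0.0638) or 3 (0.0589) and with a pseudocount of 0.1 (0.228).

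ASNS, by contrast, did not pass the test against WT in any KO line under Torin1. Its difference from WT was −0.23 ± 0.16 in TFE3 KO (adjusted p = 0.410), 0.09 ± 0.16 in TFEB KO (adjusted p = 0.758) and −0.24 ± 0.16 in DKO (adjusted p = 0.347). The highest TFE3 KO (17.4) and DKO (17.1) libraries lay just below the lowest WT one (17.6), while TFEB KO overlapped WT. MTHFD2 was higher under Torin1 in TFEB KO than in WT (0.56 ± 0.11, adjusted p = 0.000263), with no overlap between the libraries, although untreated TFEB KO and WT did not differ beyond error (−0.06 ± 0.10, adjusted p = 0.734). In DKO it was lower than in WT under Torin1 (−0.34 ± 0.11, adjusted p = 0.0387), which did not hold without DKO Torin replicate 2 (adjusted p = 0.240) or 3 (0.0555) or WT Torin replicate 2 (0.179) or 3 (0.152).

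Under Torin1, PSPH was higher in DKO than in WT (0.49 ± 0.16, adjusted p = 0.0273), lost without DKO Torin replicate 2 (adjusted p = 0.133) or WT Torin replicate 2 (0.0805) or 3 (0.193). PYCR1 was lower in TFEB KO than in WT (−0.30 ± 0.10, adjusted p = 0.0347), lost without TFEB KO Torin replicate 1 (adjusted p = 0.0669) or 3 (0.168) or WT Torin replicate 2 (0.122) or 3 (0.171). None of these PSPH, PYCR1 or DKO MTHFD2 differences passed with edgeR or DESeq2 on recovered reads (adjusted p 0.0543 to 0.0954).

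Placed in order over all 9 groups, ASNS was highest in WT HBSS (mean 204), then TFEB KO (62.1), WT (45.7) and DKO (20.5), and lowest in DKO Torin (15.3). The libraries of DKO, TFE3 KO, TFEB KO Torin and WT Torin overlapped from each group to the next in that order, as did those of TFE3 KO Torin and DKO Torin. PSAT1 had another order, with WT first (22.2) and then WT HBSS (15.3), WT Torin (5.30), TFEB KO (5.18), TFEB KO Torin (1.94) and the 4 groups without TFE3, whose libraries overlapped one another. WT Torin and TFEB KO overlapped as well. MTHFD2 and PHGDH led in WT HBSS (469 and 665), with the 4 Torin groups at the bottom of the order in both.

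Over the 25 libraries the 9 genes varied together to different degrees, which is given as a description, since libraries of one group and of one treatment are not independent points. Pearson's r of the log2 values ran from −0.62 to 0.95 over 36 pairs, with a median of 0.61. PHGDH and ASNS were the closest pair (r = 0.95), followed by SHMT2 and PYCR1 (r = 0.92). ALDH18A1 had a negative r with 7 of the other 8 genes. Among the genes that are not members, ASNS was most like VEGFA (r = 0.95), UBE2R2 (0.94) and HAGH (0.94). PSAT1 was close to SEPT11 (0.94) and NUPR1 (0.92).

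Genes of neighbouring pathways were read in the same way. Among 15 regulators of the amino acid response, 7 were called higher in HBSS (6.9% of all genes were) and none lower (6.2%): ATF4 itself (1.87 ± 0.07, adjusted p = 5.05e-26), the factors ATF3, DDIT3, CEBPB and CEBPG, the ATF4 antagonist TRIB3 and the stress protein NUPR1. ATF4 mRNA stood at 394 ± 11.1 (SD, n = 3) in untreated WT and 1443 ± 44.2 (SD, n = 2) in HBSS. Under Torin1 in WT, ATF4 mRNA was slightly higher (0.37 ± 0.07, adjusted p = 3.80e-05), while CEBPG (−1.16 ± 0.22, adjusted p = 2.08e-05) and NUPR1 (−1.60 ± 0.27, adjusted p = 4.73e-06) were called lower and MYC higher (1.42 ± 0.26, adjusted p = 5.13e-05). Thus ATF4 mRNA moved upwards under both treatments, whereas ASNS rose under one and fell under the other.

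Of the regulators, only NUPR1 was called among untreated KO lines against WT. It stood at 17.9 ± 1.25 in WT, 11.1 ± 1.18 in TFEB KO, 0.206 ± 0.179 in TFE3 KO and 0.817 ± 0.213 in DKO (SD, n = 3). Like PSAT1 it was very low in TFE3 KO and DKO, but unlike PSAT1 it was not called in TFEB KO. In the lines in which both ASNS and PSAT1 were low, ATF4 mRNA was not lower. It was slightly higher than WT in TFE3 KO (0.20 ± 0.06, adjusted p = 0.0378) and did not differ beyond error in DKO (0.13 ± 0.06, adjusted p = 0.201). In TFEB KO, where PSAT1 was lower and ASNS was not, ATF4 mRNA stood at 344 ± 16.1 (SD, n = 3). Its highest TFEB KO library (355) lay below the lowest WT one (381). These data hold mRNA only, and ATF4 protein was not measured here.

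Of the folate cycle and glycine cleavage genes, 21 of 22 had a row, and 1 was called in HBSS, where 6.2% of all genes were called lower: the folate transporter SLC46A1, which was lower (−1.11 ± 0.23, adjusted p = 0.000102). Under Torin1 in WT, TYMS, which makes thymidylate (−1.25 ± 0.11, adjusted p = 1.10e-13), and GGH (−1.23 ± 0.14, adjusted p = 1.14e-09) were called lower and AMT, of the glycine cleavage system, higher (1.61 ± 0.31, adjusted p = 2.67e-05). The list's median log2 fold change was −0.25 in HBSS and −0.11 under Torin1, and in HBSS 3 of the 21 passed the adjusted p upwards (23.6% of all genes did) and 8 downwards (24.7%). Of 13 genes that use serine, glycine or sulfur amino acids 8 had a row. CTH, the last enzyme of cysteine synthesis, was called higher in HBSS (2.15 ± 0.25, adjusted p = 4.02e-10) and SDSL lower (−1.02 ± 0.27, adjusted p = 0.00144), and under Torin1 in WT SDSL and SRR were called higher.

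Of 20 neighbours of asparagine and proline synthesis 13 had a row. In HBSS, GOT1, which makes aspartate (2.01 ± 0.11, adjusted p = 4.90e-21), GLUL, which makes glutamine (1.48 ± 0.11, adjusted p = 2.75e-15), and the alanine transaminase GPT2 (1.14 ± 0.14, adjusted p = 1.43e-09) were called higher. ASL, of the urea cycle, and the PYCR1 paralog PYCRL were called lower (−1.06 ± 0.27, adjusted p = 0.00120, and −1.45 ± 0.20, adjusted p = 5.16e-08). That makes 3 of 13 higher, where 6.9% of all genes were, and 2 lower, where 6.2% were. Under Torin1 in WT, ARG2 and GPT2 were called lower, 2 of 13 where 4% of all genes were. The median of this list was −0.10 in HBSS and −0.61 under Torin1.

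**Figure D5:**
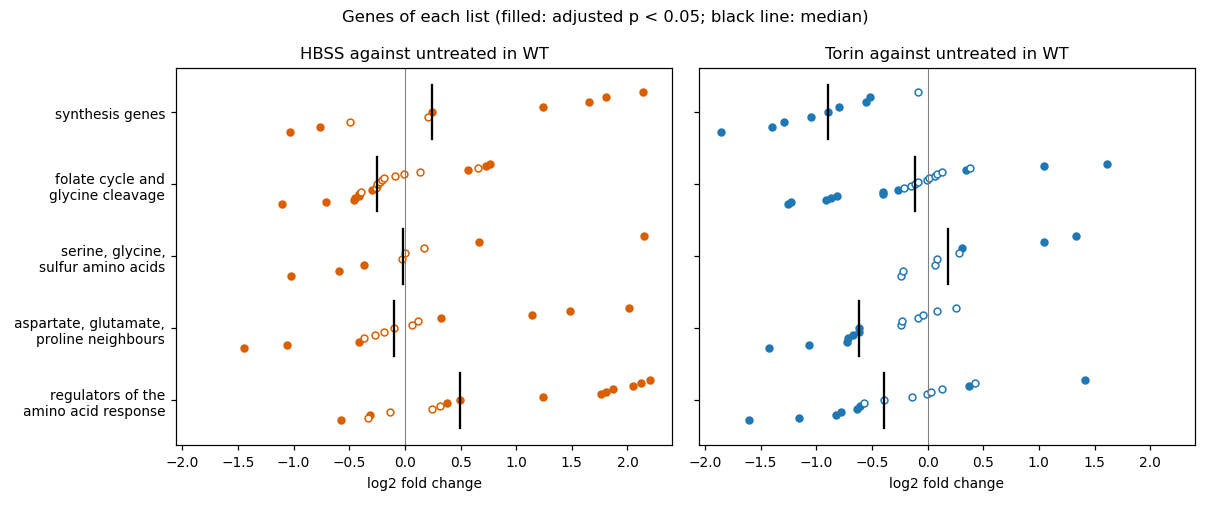
Log2 fold change (x axis) of each gene of the synthesis enzymes and of 4 neighbouring lists, in HBSS (left) and Torin1 (right) against untreated WT, which both comparisons share. Filled points have an adjusted p under 0.05 and black lines are medians. The regulators have their median at 0.50 in HBSS and −0.39 under Torin1, and all 9 synthesis enzymes lie below 0 under Torin1.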

How the data were processed

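Libraries of 501mel cells (QuantSeq Forward) had been trimmed with cutadapt 2.10, aligned to hg38 with STAR 2.7.8a and normalised with edgeR, per the labels and methods. The counter is not given in the sources used here. The deposited table holds 1 signal value per gene and library on a counts-per-million scale, made by the authors by dividing read counts by a library factor. Every value was a whole multiple of 1 read (tolerance 0.01 reads), so reads were recovered. Columns were matched to samples by title, and 2 identical columns were left out.

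Values were tested with limma 3.58.1 on log2(value + 1), R 4.3.3, in 1 fit with 9 group means (trend, robust), over the 13052 genes that reached a value of 1 in 3 or more libraries, with Benjamini-Hochberg adjustment within each of 18 comparisons. A fold change on this scale understates the change of low genes. Ratios of PSAT1 reads carry exact 95% intervals. The script was tested on simulated data. Alternatives were edgeR 4.0.16 and DESeq2 1.42.0 on reads, other pseudocounts, filters, scaling, libraries and a replicate block. All members are named, and other pathway genes are named where called, apart from a few results that are not reported here. The members and gene lists were chosen with earlier results of these data known. Positions come from GENCODE v44 and promoters from RefSeq.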

Additional observations from a re-analysis of the deposited data

Results flagged for a closer look

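Differences between genotypes in the response to Torin1 were met in 5 cases, each by the test of the difference itself in limma. ASNS fell less than in WT in TFE3 KO by 0.97 (log2) and in DKO by 0.89, and MTHFD2 fell less in TFEB KO by 0.63. With 1 library left out, the ASNS difference missed the threshold in 8 fits for DKO and 1 for TFE3 KO. The MTHFD2 difference missed it in 5 fits. With only the compared libraries, the ASNS difference in DKO missed it too (adjusted p = 0.0789). The difference for PSAT1 was 1.56 in TFE3 KO and 1.82 in DKO. The PSAT1 values rest on untreated libraries of 0 to 5 reads. PSAT1 had almost no room to fall there, so its 2 cases cannot show a weaker response.

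The column that carries both a WT HBSS and a WT Torin label entered no comparison, but held members above every untreated WT library. Its normalised read counts were 791 for PHGDH, 94.5 for PSPH, 298 for SHMT2, 480 for MTHFD2, 226 for ASNS and 205 for PYCR1. Which of the 2 labels belongs to it is not given in the sources used here and was not tested. Its ASNS compares with 202 and 207 in the WT HBSS libraries used, and 17.6 and 18.7 in the WT Torin ones. Its MTHFD2 compares with 464 and 474 in HBSS, and 56.3 and 55.5 in Torin. ALDH18A1 was 24.8 in that column, against 27.2 and 25.1 in HBSS, and 37.5 and 47.9 in Torin. SHMT1, at 7.76, hardly separates the groups (7.13 and 8.37 in HBSS, 9.14 and 8.06 in Torin). Groups of 2 or 3 libraries were too small to be searched for single outlying libraries.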

How the results depend on the processing

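Placing the column with 2 labels in WT Torin, or in both groups, changed most. The number of members called then went from 4 to 1 for Torin1 in WT, and from 2 to 1 for TFE3 KO against WT, DKO against WT, TFE3 KO against TFEB KO and DKO against TFEB KO, all untreated. It went from 1 to 0 for the Torin1 response of TFE3 KO and of DKO against that of WT. Under both placements the log2 fold change turned for PHGDH (0.13) and PSPH (0.087) under Torin1 in WT, for PSPH in DKO against WT under Torin1 (−0.38), for MTHFD2 in TFEB KO against WT under Torin1 (−0.46), and for the response differences of ASNS in TFE3 KO (−0.22) and DKO (−0.30) and of MTHFD2 in TFEB KO (−0.40), none of which then passed the threshold. That column was read far above the other WT Torin libraries in these genes, and nearer to the WT HBSS ones. Keeping it as WT HBSS turned no direction.

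The 1 member called in the response difference of TFE3 KO and of DKO (PSAT1) went to 0 with edgeR, with a pseudocount of 0.1 and with DESeq2, which gave it no adjusted p, and for TFE3 KO also with a minimum value of 5 or with only the compared libraries. With only the compared libraries, the count for TFE3 KO and DKO against WT under Torin1 went from 1 to 0 because PSAT1 was not tested there. PSAT1 was at most 0.624 in TFE3 KO Torin and 0.197 in DKO Torin. Only the WT Torin libraries therefore reached a value of 1, and the filter asks for 3 libraries. The count for TFEB KO against WT under Torin1 went to 0 with a pseudocount of 0.1. For the other changes, beyond the fewer libraries or genes in a fit, the cause was not tested. Leaving out 1 library moved the response differences of TFE3 KO and DKO between 0 and 2 called members and TFEB KO against WT under Torin1 between 0 and 1. Of 162 results for 1 gene in 1 comparison, 76 passed the threshold.

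Same-numbered libraries did not deviate together (r −0.19 to 0.16 between groups, median 0.0067). No pairing by number was seen, although groups of 2 or 3 libraries cannot exclude it. With the replicate number as a block, members called in HBSS went from 5 to 4 and no other count of members changed. Rescaling shifted no library by over 0.03 (log2).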
